A study of Homo sapiens with 27 samples.

Results

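The genes of the aryl hydrocarbon receptor (AHR) battery are described here across A431 and MDA-MB-231 cells treated with Compound Kushen Injection (CKI), alone and with a cytotoxic drug. The battery was taken as 8 genes, AHR, ARNT, AHRR, TIPARP, CYP1A1, CYP1A2, CYP1B1 and ALDH3A1, and its rows were found by matching the Entrez ID of each of the 24566 rows of the count table to these symbols. Each of the 8 symbols matched 1 row. RNA-seq reads per gene were counted in 27 libraries, with 3 in each of 9 groups, all collected after 48 h. CKI is a herbal mixture extracted from the medicinal plants Kushen and Baituling, 5-FU (5-fluorouracil) is an antimetabolite and doxorubicin is an anthracycline that binds DNA.

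A431 is an established line from a human epidermoid carcinoma, and its 5 groups were cells left untreated, cells given the vehicle, and cells given doxorubicin, CKI (1 mg/ml) or CKI (1 mg/ml) together with doxorubicin. MDA-MB-231 is an established line from a human breast adenocarcinoma, and its 4 groups were untreated cells, CKI at 1 mg/ml, 5-FU at 10 ug/ml, and both agents at these doses. All groups of a line were the same parental cells in the same serum-containing medium, with no engineered allele. The vehicle is not named in the labels, there was no vehicle group in MDA-MB-231 cells, and the labels do not tie 1 doxorubicin dose to the libraries, so no dose is given for it. Each line is a single cell type in culture, and a bulk library cannot tell apart fewer cells that express a gene and less RNA per cell.

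AHR is a cytosolic transcription factor that binds planar aromatic compounds and tryptophan metabolites. After binding a ligand it enters the nucleus, pairs with ARNT and binds a short DNA word, the xenobiotic response element. The cytochrome P450 genes CYP1A1, CYP1A2 and CYP1B1 are its best known targets, and their enzymes oxidise many of the ligands. AHRR, the AHR repressor, and TIPARP, an ADP-ribosyltransferase, are targets whose products act back on AHR. ALDH3A1 encodes an aldehyde dehydrogenase and is a classical member of the battery.

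The response element was searched as the letters TNGCGTG on both strands in the 1500 bases before the annotated start of each member, and as its core GCGTG, which every longer match contains. Sequence was read from GRCh37, the build to which the authors aligned their reads, and a match of letters is a description and not a bound site. CYP1A1 had 5 matches to TNGCGTG, a number reached by 0.0215% of 18591 protein-coding genes, and CYP1B1 had 4, reached by 0.0538%. ARNT had 2 matches, and AHRR and ALDH3A1 had 1 each, while these letters were not in the window of CYP1A2, TIPARP or AHR. At least 1 match was present before 26.6% of all genes and at least 1 core before 80.6%. The core was found 10 times before CYP1A1, 7 times before CYP1B1, 6 times before TIPARP, once before CYP1A2 and not before AHR.

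The upstream stretches of CYP1A1 and CYP1B1, the genes with the most matches, and the single sites that lie nearest to a start, are shown. All are written 5′ to 3′ on the strand of the gene, with the 7 matching letters in capitals, and a match on the other strand reads CACGCNA. The CYP1A1 stretch is chr15:75018731-75018960 on the reverse strand, from -1091 to -862 relative to the start and upstream of the gene. The CYP1B1 stretch is chr2:38304094-38304315 on the reverse strand, from -1022 to -801, and lies within introns of a longer CYP1B1 transcript and of the antisense gene CYP1B1-AS1. The AHRR site is chr5:321788-321812 on the forward strand, with its first letter at -32, and lies within introns of the readthrough gene PDCD6-AHRR. The ALDH3A1 site is chr17:19651680-19651704 on the reverse strand, with its first letter at -84. It lies within an untranslated exon of another annotated ALDH3A1 transcript.
CYP1A1: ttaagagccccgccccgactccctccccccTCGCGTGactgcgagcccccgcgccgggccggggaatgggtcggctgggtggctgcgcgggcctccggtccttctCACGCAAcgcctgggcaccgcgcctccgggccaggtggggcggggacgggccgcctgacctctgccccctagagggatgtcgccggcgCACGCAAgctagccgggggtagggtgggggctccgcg
CYP1B1: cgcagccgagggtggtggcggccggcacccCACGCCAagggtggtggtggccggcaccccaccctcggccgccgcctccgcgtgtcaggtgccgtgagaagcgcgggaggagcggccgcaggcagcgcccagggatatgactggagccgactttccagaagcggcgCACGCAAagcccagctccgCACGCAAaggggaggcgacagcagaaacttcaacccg
AHRR: gcgggcggcTCGCGTGccggggtgg
ALDH3A1: ttttcttgtCACGCAAacttcctgg

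**Figure D1:**
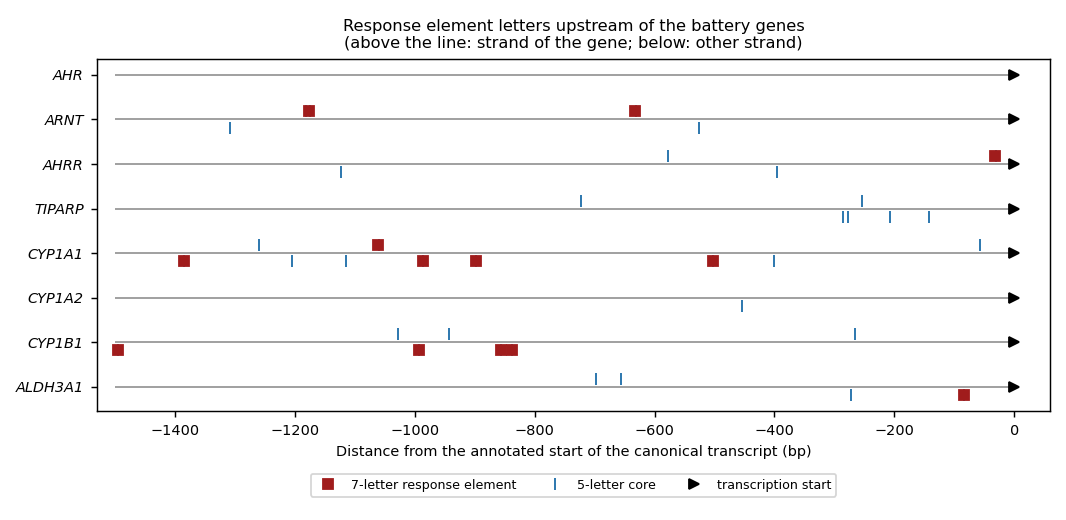
Positions of the response element letters in the 1500 bp before the annotated start of each gene (x axis, bp; red squares, the 7-letter TNGCGTG; blue ticks, the core GCGTG alone; above or below the line by strand). CYP1A1 has 5 squares and CYP1B1 has 4, while AHR has neither mark.

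Total counts ranged from 17757206 to 22809339 per library, and 0 counts in a library allows up to 0.132 to 0.169 CPM (counts scaled to the library's total) by counting error alone. Most of the listed markers separated the lines. The keratin KRT5 lay between 1430 and 3780 CPM in A431 libraries and at most at 3.96 CPM in MDA-MB-231. Vimentin (VIM) lay between 713 and 1960 CPM in MDA-MB-231 and at most at 37.5 CPM in A431. SPARC, listed as a mesenchymal marker, was low in MDA-MB-231 (0.763 to 3.65 CPM). DSP, listed for A431, did not separate the lines, with 205 to 360 CPM in A431 and 146 to 263 CPM in MDA-MB-231. The leukocyte gene PTPRC and the hepatocyte gene ALB were at or below 1.95 and 0.685 CPM in every library. In A431 PTPRC had 0 reads in the untreated, CKI and vehicle control groups, but 80 with doxorubicin and 100 with CKI plus doxorubicin. ALB had at most 1 read in each of the former groups, but 35 and 23 in the latter. Replicate 1 of the untreated MDA-MB-231 libraries stood apart from the other 2, with a chi-square per degree of freedom of 70.8 and 81.8 against 2.65 between those 2, so values without it are given beside the differences that it moved most. Levels below are CPM with TMM factors set over all 27 libraries (mean ± SD, n = 3). Fold changes come from edgeR fits within a line (± SE), with factors set within that line, and so are not the exact ratios of these levels. Tests between the lines come from a fit over both. There, line and anything else that differs between the 2 sets of libraries cannot be told apart. A gene was called when its adjusted p-value was below 0.05 and its absolute log2 fold change above 1.

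**Figure D2:**
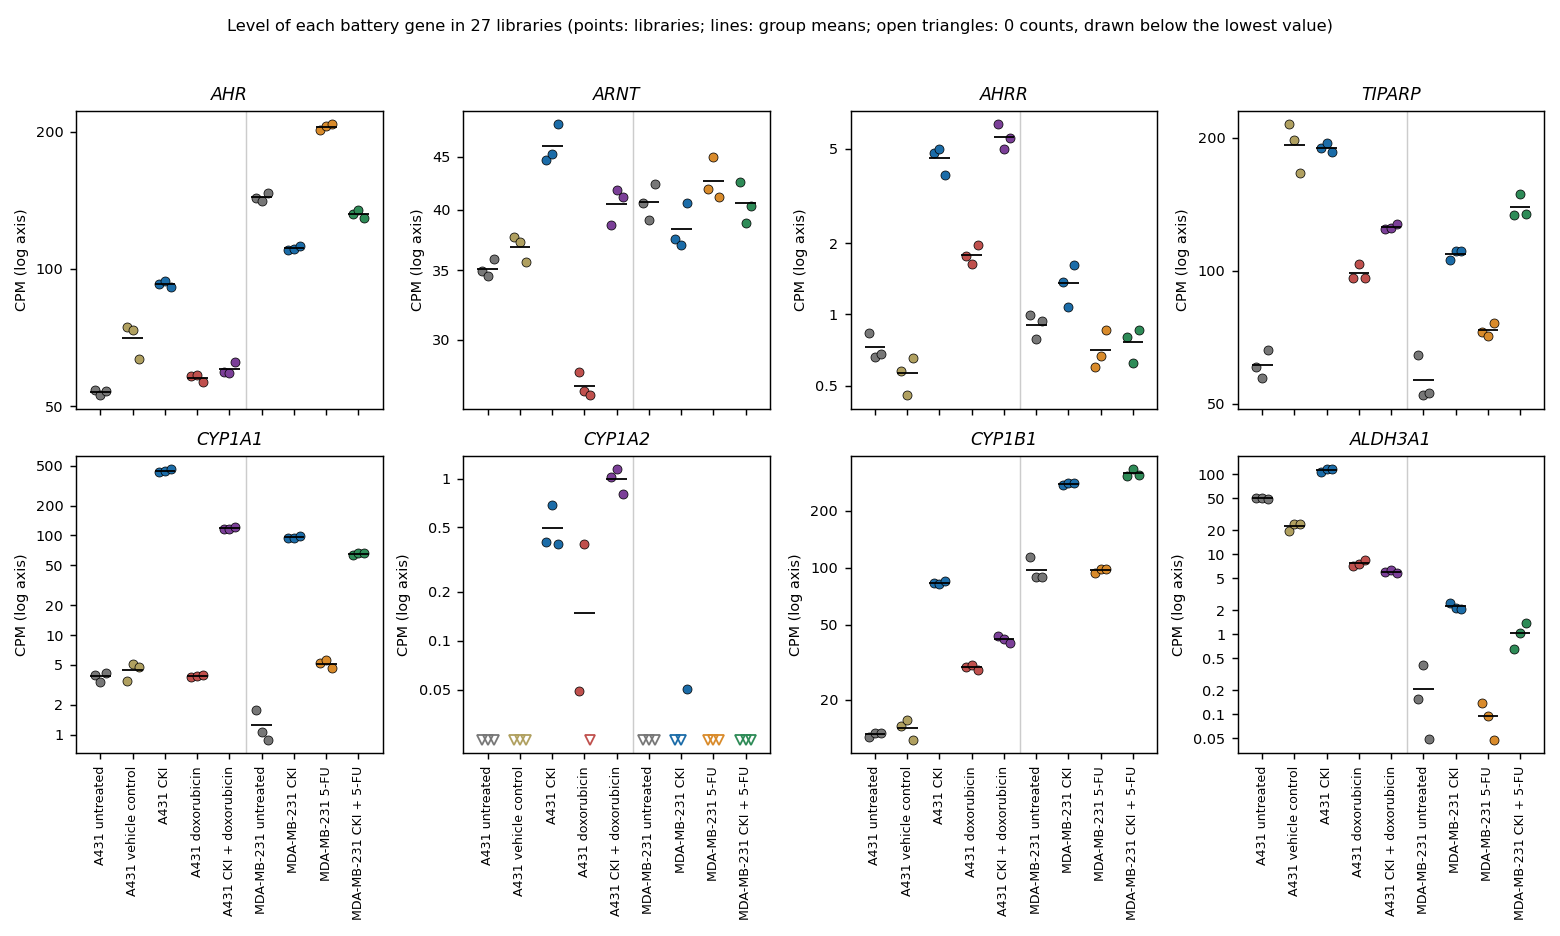
CPM of the 8 genes (log axes) in each of the 27 libraries, by group; points are libraries, lines are group means, and open triangles are libraries with 0 counts. The CKI groups of CYP1A1 sit far above the other groups of their line, ARNT spans less than the other genes, and CYP1A2 has counts mainly in A431 cells with CKI.

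The receptor gene AHR (Entrez 196, GRCh37 chromosome 7, 16955983 to 17385776, forward strand) had no group in which CKI moved it past the fold threshold, and its differences with CKI had opposite signs in the 2 lines. In MDA-MB-231 its levels were 143, 141 and 146 CPM in untreated libraries and 110, 111 and 112 CPM with CKI, so the groups did not overlap. The difference was -0.38 ± 0.05 on the log2 scale (adjusted p = 1.01e-04). In A431 the level was 53.7 ± 0.739 CPM in untreated cells and 92.5 ± 1.39 CPM with CKI, a difference of 0.69 ± 0.06 (adjusted p = 7.84e-10) that was 0.29 with offsets for GC content and length. All 3 CKI libraries were above all 3 untreated ones, the reverse of the order in MDA-MB-231. That difference between the lines was called (interaction 1.08 ± 0.08, adjusted p = 3.27e-07), although it was 0.73 once these offsets were used. This interaction compares CKI with untreated cells. In A431 CKI stood 0.29 ± 0.06 above the vehicle control, and MDA-MB-231 had no vehicle group, so a difference against the vehicle was not tested.

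AHR also differed between groups without CKI. It was highest of all with 5-FU, at 201, 205 and 208 CPM, 0.51 ± 0.05 above untreated cells on the log2 scale (adjusted p = 3.06e-06), or 0.31 with the offsets. CKI added to 5-FU brought a lower level, 132 ± 2.91 CPM, a difference of -0.63 ± 0.05 from 5-FU alone (adjusted p = 1.08e-06). In A431 the vehicle control stood 0.40 ± 0.06 above untreated cells (adjusted p = 3.06e-05), and CKI stood 0.29 ± 0.06 above the vehicle control (adjusted p = 1.89e-04). With the offsets these were 0.11 (adjusted p = 0.181) and 0.19. With doxorubicin the level was 57.7 ± 1.07 CPM, a difference of 0.08 ± 0.06 from untreated cells that turned to -0.37 with the offsets for GC content and length. Untreated A431 cells had less AHR RNA than untreated MDA-MB-231 cells, by -1.37 ± 0.06 (adjusted p = 8.79e-11), and this contrast was called. Reads of AHR could include those of an overlapping gene, ENSG00000283321, which shares 2373 bases of exon on the same strand.

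ARNT (Entrez 405, chromosome 1, 150782189 to 150849184, reverse strand), the DNA-binding partner of AHR, varied least, with group means that spanned 1.70-fold in A431 and 1.11-fold in MDA-MB-231. Over the 4 MDA-MB-231 groups its means lay between 38.4 and 42.7 CPM, the libraries of each pair of neighbouring groups overlapped, and the difference with CKI was -0.09 ± 0.07 (95% interval -0.24 to 0.05). In A431 it went from 35.1 ± 0.674 CPM in untreated cells to 46.1 ± 1.99 CPM with CKI (0.30 ± 0.06, adjusted p = 1.72e-04), but with the offsets the difference was 0.02 (adjusted p = 0.752). The lowest group was doxorubicin, with 27.9, 26.7 and 26.5 CPM, 0.40 below untreated cells (-0.40 ± 0.06, adjusted p = 6.02e-06), or -0.87 with the offsets. CKI added to doxorubicin stood at 40.6 ± 1.69 CPM, 0.60 ± 0.06 above doxorubicin alone (adjusted p = 1.94e-08). None of these ARNT differences passed the fold threshold under either fit.

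The feedback gene AHRR (Entrez 57491, chromosome 5, 321829 to 438406, forward strand) rose with CKI in A431 cells. Its counts were low, with 14, 12 and 11 reads in untreated A431 libraries (0.836, 0.659 and 0.681 CPM) and 94, 95 and 69 reads with CKI (4.79, 5.00 and 3.88 CPM). The change was 2.55 ± 0.25 on the log2 scale (5.87-fold, adjusted p = 2.81e-10), and 2.91 ± 0.26 against the vehicle control (adjusted p = 6.37e-11), which shares the CKI libraries with the former contrast. Doxorubicin alone gave 1.76, 1.64 and 1.96 CPM, a rise of 1.27 ± 0.26 (adjusted p = 7.69e-05) that was 0.97 with the offsets for GC content and length. CKI plus doxorubicin gave the highest level of any group, 5.64 ± 0.677 CPM, 1.68 ± 0.17 above doxorubicin (adjusted p = 7.44e-09).

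In MDA-MB-231 cells AHRR was 0.903 ± 0.108 CPM in untreated cells and 1.35 ± 0.272 CPM with CKI. The CKI libraries were all above the untreated ones, but the difference of 0.57 ± 0.23 did not pass (adjusted p = 0.0696), nor did the 0.64 without replicate 1 of the untreated cells. On top of 5-FU the difference was 0.10 ± 0.26 (95% interval -0.46 to 0.67), and its sign turned when 1 library of 5-FU was left out. The larger change in A431 was called as a difference between the lines (interaction 1.99 ± 0.33, adjusted p = 2.49e-04). Of the 9480 exon bases of AHRR, 5561 are shared with the readthrough gene PDCD6-AHRR, so that reads of the latter may be counted here.

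TIPARP (Entrez 25976, chromosome 3, 156391024 to 156424559, forward strand) rose with CKI in A431, and rose in the vehicle control as well. Untreated A431 libraries held 60.5, 57.1 and 66.3 CPM, CKI libraries 189, 195 and 185 CPM, and vehicle control libraries 215, 197 and 166 CPM. The vehicle control and CKI libraries overlapped, and both stood apart from the untreated ones. Against untreated cells the change was 1.54 ± 0.08 with CKI (adjusted p = 4.29e-14) and 1.66 ± 0.08 in the vehicle control (adjusted p = 1.55e-13). CKI differed from the vehicle control by -0.12 ± 0.07 (95% interval -0.28 to 0.03, adjusted p = 0.147). TIPARP was the one member called higher in the vehicle control. In that contrast the log2 fold changes of all genes fell with GC content (Spearman rho -0.58 across genes), and with offsets for GC content and length TIPARP, at 40.8% GC, was still called (1.40).

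With doxorubicin TIPARP was 98.6 ± 4.09 CPM (0.66 ± 0.08, adjusted p = 7.60e-08), a difference that was 0.15 with the offsets (adjusted p = 0.0288). With CKI as well it was 126 ± 1.85 CPM, 0.37 ± 0.08 above doxorubicin (adjusted p = 1.90e-04). In MDA-MB-231 untreated libraries held 64.3, 52.3 and 52.9 CPM and CKI libraries 106, 111 and 111 CPM. All CKI libraries were higher, by 0.94 ± 0.08 (adjusted p = 5.58e-06), just under the fold threshold. Without replicate 1 of the untreated cells, the highest of the 3, the value was 1.05 and TIPARP was called. CKI on top of 5-FU gave 0.92 ± 0.08 (adjusted p = 3.21e-06), and 139 ± 8.99 CPM was the highest level in this line.

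CYP1A1 (Entrez 1543, chromosome 15, 75011883 to 75017877, reverse strand) encodes the monooxygenase most used as a readout of AHR activity, and it had the largest log2 fold change with CKI in both lines among the members with reads in the untreated cells. In A431 it went from 4.002, 3.41 and 4.15 CPM in untreated libraries to 435, 443 and 465 CPM with CKI. Vehicle control libraries had 3.46, 5.07 and 4.74 CPM and overlapped the untreated ones. The rise was 6.77 ± 0.11 on the log2 scale (109-fold, adjusted p = 1.20e-23) against untreated cells and 6.55 ± 0.10 (93.5-fold) against the vehicle control, whose own difference from untreated cells was 0.22 ± 0.13 (adjusted p = 0.178). By p-value CYP1A1 ranked 1 among 15881 genes in both contrasts with CKI.

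In MDA-MB-231 CYP1A1 went from 1.78, 1.06 and 0.885 CPM to 94.2, 95.2 and 99.9 CPM with CKI. The rise of 6.28 ± 0.17 (77.6-fold, adjusted p = 1.52e-10) ranked 3 by size and 2 by p-value among 13999 genes, and was 6.61 without replicate 1 of the untreated cells. 5-FU alone raised it as well, to 5.24, 5.58 and 4.67 CPM, by 2.07 ± 0.18 (4.19-fold, adjusted p = 1.13e-06), or 2.40 without that library. CKI plus 5-FU gave 63.8, 66.5 and 66.9 CPM, below every library of CKI alone. The difference from CKI alone was -0.54 ± 0.10 (adjusted p = 1.41e-03), under the fold threshold.

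In A431 cells CYP1A1 was not called with doxorubicin alone. Doxorubicin libraries had 3.77, 3.87 and 3.97 CPM, inside the range of untreated A431 cells, with a difference of -0.02 ± 0.13 (95% interval -0.29 to 0.26) whose sign turned with other scaling factors and which was -0.50 with the offsets (adjusted p = 1.87e-03). On top of doxorubicin CKI raised CYP1A1 to 115, 117 and 121 CPM, by 4.95 ± 0.10 (30.8-fold, adjusted p = 6.10e-21). This was lower than with CKI alone by -1.84 ± 0.06 (adjusted p = 8.15e-17). The change with CKI was smaller beside either drug, since the interaction was -1.82 ± 0.15 with doxorubicin (adjusted p = 4.22e-10) and -2.61 ± 0.21 with 5-FU (adjusted p = 5.05e-06), the latter -2.94 without replicate 1 of untreated MDA-MB-231. The test of the CKI change between the lines gave 0.50 ± 0.22 (adjusted p = 0.0894), 0.16 without that library and 0.67 with the offsets (adjusted p = 0.0185).

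CYP1A2 (Entrez 1544, chromosome 15, 75041186 to 75048948, forward strand), the neighbour of CYP1A1 and in the body largely a liver enzyme, was counted at the limit of detection. Untreated and vehicle control A431 libraries held 0 reads. CKI libraries held 8, 13 and 7 reads, doxorubicin libraries 1, 8 and 0, and libraries with both agents 22, 24 and 16. The 12 MDA-MB-231 libraries held 1 read in all, in CKI replicate 3, so CYP1A2 was not tested there. With the untreated group set at 3 reads over its 3 libraries, CYP1A2 was at least 8.45-fold higher with CKI and at least 16.9-fold higher with CKI plus doxorubicin. Against the vehicle control the bound was 9.16-fold. The gene passed the filter on low counts only through the groups with CKI, so these differences are given without a test.

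With doxorubicin alone CYP1A2 was at least 2.53-fold higher than in untreated cells, but 8 of the 9 reads were in replicate 2. CKI plus doxorubicin was 2.70 ± 0.69 above doxorubicin alone, or 5.01 without that replicate, and 1.07 ± 0.47 above CKI alone. The latter difference was 0.76 with the offsets for GC content and length, and between 0.93 and 1.37 without 1 library. These differences are likewise given without a test. CYP1A2 stood lower against CYP1A1 with CKI (1.11 reads per 1000 CYP1A1 reads) than with CKI plus doxorubicin (8.42) or doxorubicin alone (38.5). The longest run of bases shared by the canonical transcripts of the 2 genes was 40, and none of the 3083 stretches of 50 bases in CYP1A2 was found in CYP1A1.

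CYP1B1 (Entrez 1545, chromosome 2, 38294116 to 38337044, reverse strand), a monooxygenase of tissues outside the liver, was the CYP1 gene with the highest level in untreated MDA-MB-231 cells per length of transcript, at 18.7 CPM per kb against 0.476 for CYP1A1. Its CPM in this line was 114, 88.8 and 88.8 in untreated libraries and 273, 282 and 281 with CKI. The rise was 1.51 ± 0.09 (2.84-fold, adjusted p = 2.60e-07), and 1.64 without replicate 1 of the untreated cells. 5-FU alone gave 94.1, 97.8 and 98.3 CPM, within the untreated range, a difference of -0.01 ± 0.09 (95% interval -0.20 to 0.18) with a sign that depends on single libraries (0.12 without replicate 1 of the untreated cells) and a value of -0.17 with the offsets. On top of 5-FU CKI raised CYP1B1 by 1.71 ± 0.09 (adjusted p = 6.17e-08), to 316 ± 14.2 CPM. The interaction with 5-FU was 0.20 ± 0.13 (adjusted p = 0.245).

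In A431 CYP1B1 started lower, at 12.7, 13.4 and 13.3 CPM, and reached 83.2, 82.0 and 84.8 CPM with CKI. The rise was 2.57 ± 0.08 (5.95-fold, adjusted p = 4.24e-18), and 2.45 ± 0.08 against the vehicle control. Doxorubicin gave 29.7 ± 0.971 CPM, a rise of 1.15 ± 0.08 (adjusted p = 8.27e-12) that was 0.67 with the offsets. With both agents the level was 41.8 ± 1.88 CPM, 0.51 ± 0.07 above doxorubicin (adjusted p = 1.13e-06) and so under the fold threshold. The interaction of CKI and doxorubicin was -2.06 ± 0.10 (adjusted p = 2.84e-13), the most negative of the members with an SE. Between the lines the CKI change was larger in A431 (1.07 ± 0.14, adjusted p = 3.35e-05), a call lost with the offsets (0.80) and without replicate 1 of untreated MDA-MB-231 (0.93). CYP1B1 shares 677 bases of exon with CYP1B1-AS1 on the other strand, and the library kit does not mark strand.

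ALDH3A1 (Entrez 218, chromosome 17, 19641297 to 19652256, reverse strand) rose with CKI in both lines from very different levels. Untreated A431 libraries held 51.2, 49.9 and 49.2 CPM, and untreated MDA-MB-231 libraries 3, 9 and 1 reads (0.157, 0.415 and 0.0492 CPM). With CKI the values were 108, 116 and 115 CPM in A431 and 2.48, 2.14 and 2.07 CPM in MDA-MB-231. The rise was 1.08 ± 0.07 in A431 (adjusted p = 2.31e-12). In MDA-MB-231 it was 3.35 ± 0.52, between 2.89 and 4.37 without 1 library, and 3.19 without replicate 1 of the untreated cells. The gene passed the filter on low counts in MDA-MB-231 only through the CKI groups, so that value is given without a test. The change with CKI was larger in MDA-MB-231, with an interaction of -2.25 ± 0.41 for A431 against MDA-MB-231 (adjusted p = 1.42e-04, between -3.27 and -1.80 without 1 library). In this fit over both lines the gene passed the filter through the A431 libraries. The fit compares with untreated cells, whereas in A431 the rise against the vehicle control was 2.23 ± 0.07. MDA-MB-231 had no vehicle group, so a difference between the lines against the vehicle was not tested.

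ALDH3A1 was the one member called lower in the A431 groups without CKI. In the vehicle control it was 19.5, 24.1 and 23.8 CPM, a fall of -1.15 ± 0.08 (adjusted p = 9.03e-11) that was -0.78 with the offsets. Doxorubicin left 7.10, 7.44 and 8.49 CPM, a fall of -2.73 ± 0.09 (adjusted p = 5.59e-18). Beside doxorubicin CKI did not raise it, since the level was 6.07 ± 0.347 CPM and the difference from doxorubicin -0.32 ± 0.11 (adjusted p = 0.0128), or -0.05 with the offsets (adjusted p = 0.690). Against the vehicle control CKI was 2.23 ± 0.07 higher (adjusted p = 3.63e-17). In MDA-MB-231 CKI on top of 5-FU gave 0.658, 1.02 and 1.39 CPM, 3.36 ± 0.73 above 5-FU. This was -1.11 ± 0.31 from CKI alone, and -0.88 without replicate 1 of CKI plus 5-FU. These MDA-MB-231 differences are likewise given without a test.

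**Figure D3:**
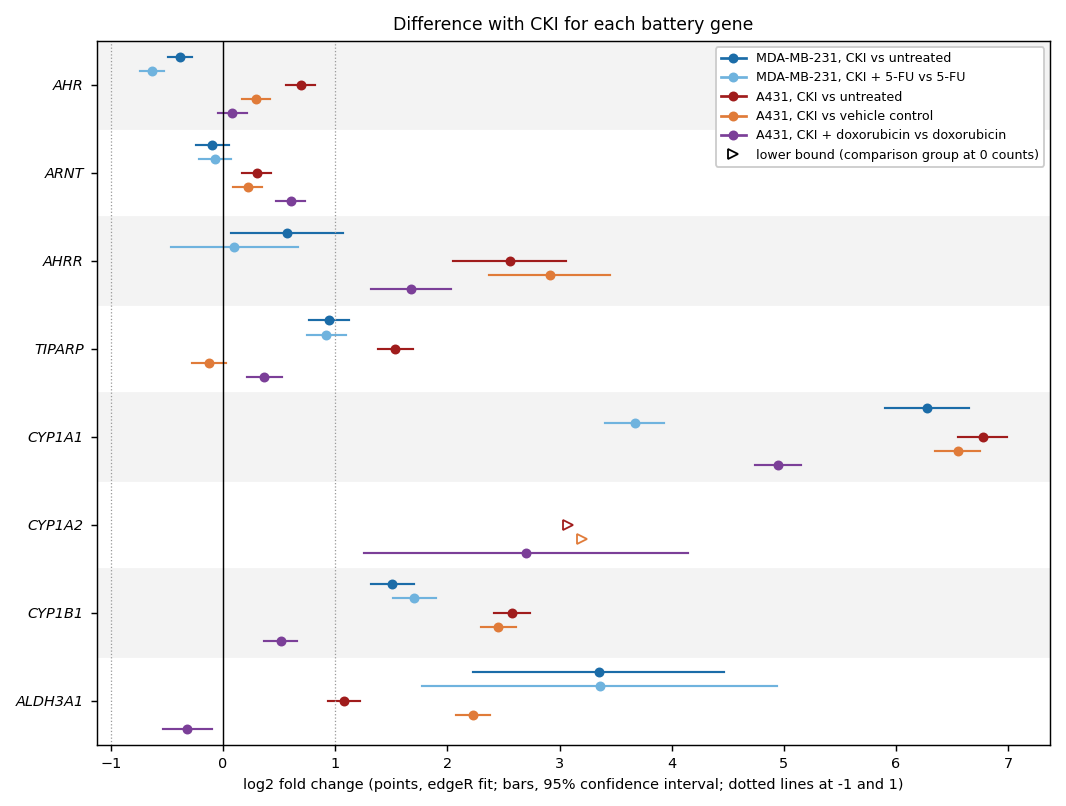
Log2 fold change with CKI (x axis) for each gene in 5 contrasts; points are edgeR estimates, bars 95% confidence intervals, and open triangles the lower bounds for CYP1A2, whose comparison groups had 0 counts. CYP1A1 lies between 3.67 and 6.77 in all 5 contrasts, AHR lies below 0 in MDA-MB-231 and above 0 in A431 (with doxorubicin present it turns to -0.05 with the offsets for GC content and length), and the points with doxorubicin present lie left of the other A431 points for AHR, AHRR, CYP1A1, CYP1B1 and ALDH3A1.

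As counts over the battery, CKI raised 3 of 8 members in MDA-MB-231 (CYP1A1, CYP1B1 and ALDH3A1, 7 tested) where 5.96% of all tested genes were called, and 6 of 8 in A431 (all but AHR and ARNT) where 22.4% were called. Against the vehicle control CKI raised 5 of 8 members in A431, with 19.5% of all genes called. ALDH3A1 in MDA-MB-231 and CYP1A2 in A431 passed the filter on low counts only through the groups with CKI, and without them the counts were 2, 5 and 4. The median over the other members tested was 0.75 (6 genes) in MDA-MB-231 and 1.54 (7 genes) in A431 on the log2 scale, beside medians over all genes of -0.01 and 0.00. On top of 5-FU CKI raised CYP1A1, CYP1B1 and ALDH3A1 (9.77% of all genes called), and on top of doxorubicin it raised CYP1A1, CYP1A2 and AHRR (14.9% called), with 2 left in each contrast once the same genes were left out. No member was called lower with CKI in these 5 contrasts.

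In the contrasts without CKI, CYP1A1 was the one member called with 5-FU, of 7 tested (13.3% of all genes called). Doxorubicin raised CYP1B1 and AHRR and lowered ALDH3A1 (37.3% called), and the vehicle control raised TIPARP and lowered ALDH3A1 (2.54% called). CYP1A2 also passed the thresholds with doxorubicin, but it passed the filter on low counts only through the groups with CKI. With it the share called was 4 of 8, near that of all genes, and without it 2 of 7 were called higher and 1 lower. With the offsets for GC content and length 2 of 8 were left, CYP1A2 among them.

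**Figure D4:**
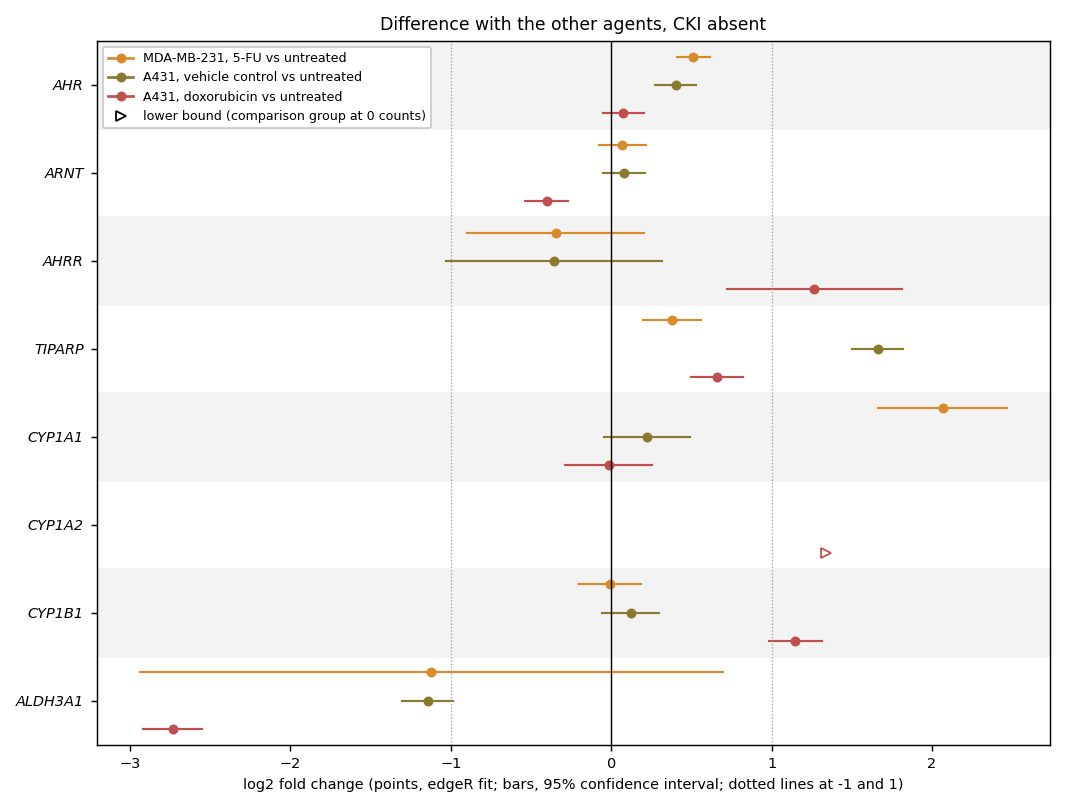
Log2 fold change (x axis) of each gene with 5-FU, the vehicle control or doxorubicin against untreated cells of the same line, CKI absent; points are edgeR estimates with 95% confidence intervals, and the open triangle is the lower bound for CYP1A2. CYP1A1 stands at 2.07 with 5-FU and near 0 with doxorubicin and vehicle, TIPARP stands at 1.66 with vehicle, and ALDH3A1 stands at -2.73 with doxorubicin.

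When 5-FU was added to CKI, ALDH3A1 was the one member past the thresholds, downward, and 0 of the other 6 tested were called (3.81% of all genes called). When doxorubicin was added, CYP1A1 and ALDH3A1 were called lower (25.7% called), and CYP1A2 passed the thresholds upward. ALDH3A1 in MDA-MB-231 and CYP1A2 in A431 passed the filter on low counts only through the groups with CKI. With the offsets CYP1A2 no longer passed the thresholds and CYP1B1 was called lower (-1.13, against -0.91 without them). The interaction of CKI with 5-FU was called for CYP1A1 only (6.84% called). With doxorubicin it was called for CYP1A1, CYP1B1, TIPARP and ALDH3A1, all negative (19.5% called), but TIPARP lost its call with the offsets (-0.98). All interactions here take untreated cells as their base and not the vehicle control. Between CKI and the vehicle control in A431, TIPARP differed by -0.12 ± 0.07 (adjusted p = 0.147). The interaction of line and CKI was called for CYP1B1, AHRR and AHR, larger in A431, and for ALDH3A1, larger in MDA-MB-231 (18.5% called). With the offsets the calls of CYP1B1 (0.80) and AHR (0.73) were lost. That of CYP1B1 was also lost without replicate 1 of untreated MDA-MB-231 (0.93). Untreated A431 cells had more CYP1A1 (1.69 ± 0.20, or 2.03 without replicate 1 of untreated MDA-MB-231) and ALDH3A1 (7.89 ± 0.38) and less CYP1B1 (-2.84 ± 0.10) and AHR than untreated MDA-MB-231 cells, in a contrast where 42.9% of all genes were called.

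The order of CYP1A1 levels over the 9 groups was CKI in A431, CKI plus doxorubicin, CKI in MDA-MB-231 and CKI plus 5-FU, followed by the 5 groups without CKI. The libraries of these first 4 groups did not overlap, while 5-FU, vehicle control and doxorubicin each overlapped the next, and untreated A431 stood above untreated MDA-MB-231, the lowest. For CYP1B1 the 4 MDA-MB-231 groups stood above the 5 A431 groups, with CKI in A431 (83.3 CPM) still below untreated MDA-MB-231 (97.3 CPM). AHR was likewise higher in every MDA-MB-231 group than in any A431 group. ALDH3A1 had the opposite order, with its lowest A431 group at 6.07 CPM and its highest MDA-MB-231 group at 2.23 CPM.

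Among the other genes of the pathway, 3 chaperone genes of the receptor complex (HSP90AA1, HSP90AB1 and PTGES3, whose products hold AHR in the cytosol) had 0 of 3 called in MDA-MB-231 with CKI, where 5.96% of all genes were called. In A431, where 22.4% were called, HSP90AB1, a cytosolic HSP90 chaperone, was the one called, and it fell from 9570 ± 130 to 4900 ± 32.9 CPM (-1.06 ± 0.05, adjusted p = 8.81e-15). Their median was -0.18 in MDA-MB-231 and -0.79 in A431. With the vehicle control as base, 2 of the 3 were called lower with CKI in A431, with a median of -1.01, beside 19.5% of all genes called. Of the related bHLH-PAS genes (ARNT2, BMAL1, CLOCK, NPAS2, HIF1A, EPAS1, SIM1 and SIM2) 0 of 7 tested in MDA-MB-231 and 0 of 8 in A431 were called, with medians of -0.02 and 0.43. By adjusted p-value alone, 3 of the 7 and 6 of the 8 passed, near the 36.2% and 67.0% of all genes that did.

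Of 11 other genes reported to respond to AHR, NQO1, a quinone reductase, was the 1 gene called among 7 tested in MDA-MB-231, where it rose from 125 ± 30.5 to 261 ± 5.04 CPM (1.05 ± 0.13, adjusted p = 6.18e-05), or by 1.27 without replicate 1 of the untreated cells. In A431, 6 of 9 tested rose and 1 fell, beside 22.4% of all genes called, and the median was 1.35. UGT1A1 (1.43 ± 0.17) and UGT1A6 (1.31 ± 0.13) encode glucuronosyltransferases whose transcripts share exons, so their reads may be split between them. XDH, a xanthine dehydrogenase, rose by 1.61 ± 0.07. SERPINB2, EREG and NEDD9 rose with CKI by 1.74 ± 0.09, 1.35 ± 0.08 and 2.69 ± 0.10, but also in the vehicle control, by 2.47 ± 0.09, 2.01 ± 0.07 and 1.69 ± 0.11. SLC7A5, an amino acid transporter, fell by -1.04 ± 0.11. Against the vehicle control 3 of 9 were called (UGT1A1, UGT1A6 and XDH), beside 19.5% of all genes.

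Of 5 enzymes that make or feed AHR ligands from tryptophan, IL4I1, an amino acid oxidase, fell with CKI in both lines, by -1.63 ± 0.47 in MDA-MB-231 (adjusted p = 0.0125, and -1.93 without replicate 1 of the untreated cells) and -1.12 ± 0.23 in A431 (adjusted p = 1.15e-04). IDO1, an indoleamine dioxygenase, fell in MDA-MB-231 from 41 reads over 3 libraries to 2 (-4.14 ± 1.02) and was not called in A431 (0.34 ± 0.18). With so few reads in the CKI group, IDO1 passed the filter on low counts in MDA-MB-231 only through other groups. Its value in that line is therefore given without a test. So 2 of 4 passed the thresholds in MDA-MB-231, IDO1 among them, beside 5.96% of all genes. In A431 it was 1 of 5, near the 22.4% of all genes. Against the vehicle control 0 of the 5 were called in A431, IL4I1 included, beside 19.5% of all genes. Genes of other xenobiotic and nuclear receptors were little expressed, with 2 of 9 tested in MDA-MB-231 and none of them called, although CYP24A1 was called higher (1.09) without replicate 1 of the untreated cells. In A431, 7 were tested, with 1 called higher and 2 lower, beside 22.4% of all genes called. Against the vehicle control 0 were called higher and 2 lower, beside 19.5%. CYP26A1 (-2.05 ± 0.26) and CYP24A1 (-1.26 ± 0.11), which degrade retinoic acid and vitamin D, fell, and CYP3A5 rose from 11 to 50 reads over 3 libraries. CYP3A5 was also called higher in the vehicle control, with 35 reads.

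**Figure D5:**
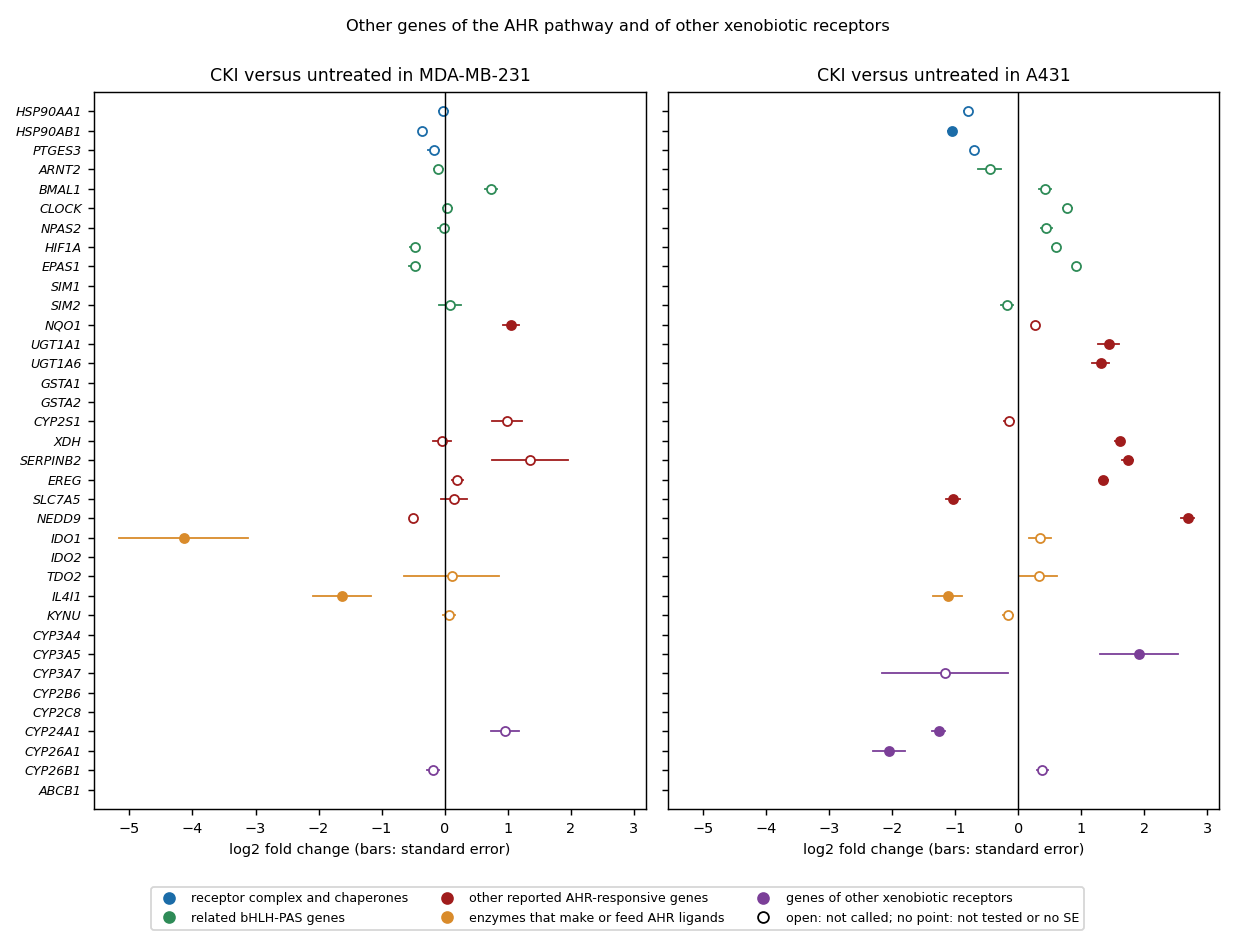
Log2 fold change with CKI against untreated cells for 36 other genes, coloured by list, in MDA-MB-231 (left) and A431 (right); bars are standard errors, filled points were called, and genes without a point were not tested or had no SE. In A431 the filled points to the right of 0 include 6 AHR-responsive genes, while NQO1 is the 1 filled point to the right of 0 in MDA-MB-231.

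The genes of the count table on either side of the pair CYP1A1 and CYP1A2 on chromosome 15 were not called with CKI. EDC3 differed with CKI by -0.06 ± 0.07 in MDA-MB-231 and -0.03 ± 0.06 in A431, CLK3 by 0.20 ± 0.07 and 0.47 ± 0.06, and CSK by -0.01 ± 0.13 and -0.35 ± 0.08. MIR4513 had too few reads to be tested. Over all 27 libraries, with log2 CPM centred on the untreated cells of each line, the genes whose pattern was most like CYP1A1 were FTL (r = 0.971), AKR1B1 (0.945), AKR1C3 (0.937), PLA2G4A (0.937) and PTGR1 (0.918), among 13367 genes. FTL encodes ferritin light chain and AKR1B1 and AKR1C3 encode aldo-keto reductases. Among the members r was 0.852 for CYP1B1, 0.572 for TIPARP, 0.526 for ALDH3A1, 0.490 for ARNT, 0.489 for AHRR, 0.459 for CYP1A2 and 0.009 for AHR. The libraries of a group share their treatment, so these values describe the pattern over 9 groups and carry no test.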

How the data were processed

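RNA was sequenced as unstranded paired-end libraries, and the deposited table holds unnormalised counts for each gene and library, which the authors made from reads trimmed with Trim Galore 0.3.7 and aligned to hg19 (GRCh37) with STAR 2.5.3a. The counting tool and annotation are not given in the sources used here. Of 24566 rows, 24422 matched a symbol in a RefSeq table that was used for names only. Groups and replicate numbers came from the sample labels. The p-values measure the spread between these libraries, which the study calls biological replicates without saying how they were grown.

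The battery and the gene lists were chosen with earlier results of these data known. All 8 members were described in all groups. Some list genes are not reported here, and list counts and medians leave them out. From 5 fixed lists, genes called with CKI against untreated cells in either line were named, with the nearest genes on each side of CYP1A1 and CYP1A2 and the 5 genes most like CYP1A1.

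Counts were tested with edgeR 4.0.16 (TMM, filterByExpr, glmQLFit, glmQLFTest) in R 4.3.3, over 12 MDA-MB-231 or 15 A431 libraries, or, across lines, the untreated and CKI libraries of each, with Benjamini-Hochberg adjustment over all tested genes. Intervals are 95% and use the fitted weights. On simulated counts, 99.5% of genes changed by 2 on the log2 scale were recovered for CKI in MDA-MB-231 (13815 genes), 97.4% for CKI in A431 (14948) and 91.9% for the line interaction (14550). Alternatives were RLE factors, DESeq2 1.42.0, no filter, the replicate number as a block, offsets for GC content and length, the compared groups alone, and leaving out each library. Chosen after seeing the data were the list genes without replicate 1 of untreated MDA-MB-231, and the counts of called members without those that passed the filter only through groups with CKI. Positions and exons came from GENCODE genes on GRCh37, and sequence from that genome.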

Additional observations from a re-analysis of the deposited data

Results flagged for a closer look

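Each result below was picked out because the test of the difference itself passed an adjusted p-value of 0.05 (log2 scale, edgeR), whatever its size. Between CKI with and without 5-FU in MDA-MB-231 the change with CKI differed for CYP1A1 (-2.61) and AHR (-0.25). Between CKI with and without doxorubicin in A431 it differed for CYP1A1 (-1.82), CYP1B1 (-2.06), AHRR (-0.88), TIPARP (-1.17), AHR (-0.61), ALDH3A1 (-1.40) and, upward, ARNT (0.30). Between A431 and MDA-MB-231 the change with CKI differed for CYP1B1 (1.07), AHRR (1.99), TIPARP (0.60), AHR (1.08), ARNT (0.40) and ALDH3A1 (-2.25). Over all tested genes 31.4%, 57.4% and 47.0% passed the same adjusted p-value in these 3 tests. All 3 take untreated cells as their base and not the vehicle control. Between CKI and the vehicle control in A431, TIPARP differed by -0.12 ± 0.07 (adjusted p = 0.147). The p-value rose above 0.05 for AHR with 5-FU with no filter (-0.24, adjusted p = 0.0658), for AHRR with doxorubicin under the offsets for GC content and length (-0.59, adjusted p = 0.0913), for ARNT with doxorubicin with all 27 libraries in one fit (0.20, adjusted p = 0.0524) and for ARNT between the lines under the offsets (0.20, adjusted p = 0.0788). With the offsets and the replicate block it was 0.0976 for AHRR and 0.0758 for ARNT.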

How the results depend on the processing

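Over all alternatives, 191 counts of called members stayed within 1.5 times the reported count and 9 did not, and of the members' log2 fold changes 1425 kept their direction and their side of the thresholds, 27 lost a call, 3 gained one and 37 changed sign. With the offsets for GC content and length, alone or with the replicate block, the called members were 0 for CKI plus 5-FU against CKI, 1 for the vehicle control, 2 for doxorubicin and 2 for the line interaction. Without 1 library the first of these counts ranged from 0 to 1, and it was 0 without replicate 1 of CKI plus 5-FU. The counts of called members for CKI against untreated cells ranged from 3 to 4 in MDA-MB-231 and from 5 to 6 in A431.

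The sign changes were of differences that were not called. With the offsets, and with the offsets and block, ARNT was at -0.071 and -0.070 for 5-FU, -0.052 and -0.051 for CKI plus 5-FU against CKI, and -0.085 and -0.085 for the vehicle control. ARNT was at 0.051 with the offsets between the untreated lines. CYP1B1 was at -0.10 and -0.10 for the vehicle control. AHR was at -0.37 and -0.37 for doxorubicin and at -0.050 and -0.051 for CKI added to doxorubicin. CYP1A1 with doxorubicin was at 0.073 with RLE factors, 0.073 with DESeq2 and 0.064 with the compared groups alone. CYP1A2 in the vehicle control, with 0 reads on both sides, was at 0.003 with the block and 0.008 with block and offsets. The CKI by 5-FU interaction of ALDH3A1 was at -0.006 with the block. Leaving out 1 library gave ranges of -0.071 to 0.123 for CYP1B1 with 5-FU, -0.013 to 0.262 for AHRR with CKI added to 5-FU, and -0.116 to 0.036 for CYP1A1 with doxorubicin. For the CKI by 5-FU interaction the ranges were -0.121 to 0.035 for TIPARP, -1.01 to 0.467 for ALDH3A1 and -0.009 to 0.065 for ARNT. The cause was not tested.

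The same replicate numbers did not pair the libraries, since in no comparison were all correlations of same-numbered libraries above 0.1. The replicate block alone moved no count of called members. Over all genes, the vehicle control contrast had 404 calls, but 236 with offsets, 232 with offsets and block and 263 with the compared groups alone, and CKI plus doxorubicin against CKI had 4077, but 6171 with no filter. Library size alone in place of TMM shifts differences by 0.32 for doxorubicin, 0.29 for doxorubicin added to CKI and 0.13 for 5-FU. Depth limits CYP1A2 in every group, and AHRR and, in MDA-MB-231, ALDH3A1.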
